A study of Mus musculus with 6 samples.

Results

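The 10 genes described here, *H19*, *Igf2*, *Dlk1*, *Meg3*, *Rian*, *Peg3*, *Plagl1*, *Cdkn1c*, *Grb10* and *Mest*, are imprinted genes with known roles in fetal growth, and were chosen by name. Of these, 7 were among the 23231 genes listed in at least 1 of 6 RNA-Seq libraries of C2C12 cells. C2C12 cells are mouse myoblasts of an established line, which form multinucleate myotubes in low serum. All 6 libraries were made on day 5 of differentiation in 2% horse serum, from cells transduced by lentivirus (multiplicity of infection 100) and selected as a population with 2 µg/ml puromycin. Libraries 1 to 3 of the dCas9-KRAB group came from cells with the dCas9-KRAB repressor and no guide to an enhancer, and libraries 1 to 3 of the dCas9-KRAB-En5 group came from cells that also carried 2 guides against Myog-En5, an enhancer of *Myog*. The comparison asked what repression of this enhancer did to each of these genes. Nothing in the labels says that the 3 libraries of a group came from separate infections, so the p-values measure the spread between these libraries, which may be technical.

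Imprinted genes are transcribed mainly from either the maternal or the paternal copy, according to DNA methylation set in the germ line. Many control growth: paternally expressed members such as *Igf2* tend to promote it, and maternally expressed members such as *H19*, *Cdkn1c* and *Grb10* tend to restrain it. *H19* and *Igf2* lie side by side and share enhancers, of which some act in muscle, and *Dlk1*, *Meg3* and *Rian* share a second imprinted domain. *Plagl1* encodes a zinc finger transcription factor regarded as a hub of this network. *H19* RNA is abundant in embryonic mesoderm and in differentiating muscle cells. The counts do not separate the parental copies, so nothing here bears on imprinting itself.

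The targeted gene followed the labels. *Myog* had 43211, 68488 and 74845 counts in the dCas9-KRAB libraries and 12, 0 and 0 in the dCas9-KRAB-En5 libraries. Total counts ran from 31831093 to 73988425 per library, and 3 counts, the limit that a count of 0 allows, correspond to 0.0405 to 0.0942 CPM (counts scaled to a common library total). The TPM (counts per gene length, scaled to a common total) of 10 skeletal muscle markers summed to 16748 to 19428 in dCas9-KRAB and to 14.96 to 23.0 in dCas9-KRAB-En5. A list of 12 mesenchymal markers summed to 34.9 to 186 and to 15.4 to 32.7 TPM, with 10 listed and *Thy1* and *Twist1* listed in no library. Its members did not move together: of 7 tested, 5 had negative and 2 positive log2 fold changes. *Col1a1* was called lower (-3.65, edgeR adjusted p = 0.0062) and *Tcf4* higher (2.88, 0.00453), calls kept in 7 and 8 of 14 alternatives. DESeq2 called 4 lower and 1 higher, and limma 0. Over all genes tested, edgeR called 4.67% lower and 1.52% higher, 890 genes in all, and DESeq2 called 2390 genes. A list of 12 macrophage markers, which a myoblast line is not known to express, summed to 3856 to 4671 and to 5439 to 8395 TPM, and 8 of the 12 were at 10 TPM or more in every library. Of the 12, 8 had positive and 4 negative log2 fold changes, and *Adgre1*, a macrophage surface receptor, was called higher in dCas9-KRAB-En5 (2.68, edgeR adjusted p = 0.00706), a call kept in 5 of 14 alternatives with adjusted p up to 0.0589 and lost without any 1 library other than dCas9-KRAB-En5 library 3. DESeq2 and the replicate block each called 2 higher, with *Itgam* the second, and 3 were called higher and 1 lower without dCas9-KRAB-En5 library 3. Library 3 of dCas9-KRAB-En5 stood apart in listing 13991 genes, against 17084 to 19395 in the other libraries, and leaving it out raised the genes called from 890 to 3921 and kept the calls of *H19* (log2 fold change -11.13, edgeR adjusted p = 1.23e-05) and *Peg3* (-7.38, adjusted p = 0.000374). In these bulk libraries, fewer cells of a type and less RNA per cell cannot be told apart, and the part of other cells in the results below was not tested.

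Of the 10 imprinted genes, *H19* was highly expressed, *Peg3* was low, and the others were close to absent. In numbers, 7 were listed in at least 1 library, 8 never exceeded 5 counts in any library, 6 never exceeded 3, and *H19* alone reached 1 TPM. *H19* made up 99.988%, 99.989% and 99.993% of the summed TPM of the 10 genes in dCas9-KRAB, and 98.54%, 98.45% and 94.974% in dCas9-KRAB-En5. Only *H19* and *Peg3* passed the filter on low counts, and both were called lower in dCas9-KRAB-En5. None of the 10 was called higher by edgeR, DESeq2 or limma, and none was higher at an unadjusted p under 0.05 among those tested. That carries no weight, since the 2 tested genes were both lower and the other 8 had too few counts for a call. A call needed an adjusted p no greater than 0.01 together with a log2 fold change of 1 or more in size, which 6.19% of the 14378 genes tested met, 4.67% as lower and 1.52% as higher. A fit blocked on the replicate number called 10.7% (6.79% lower, 3.94% higher), and it kept the calls of *H19* and *Peg3*. *Peg3* passed the filter only through its dCas9-KRAB counts, so the count of 2 carries no weight of its own.

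**Figure D1:**
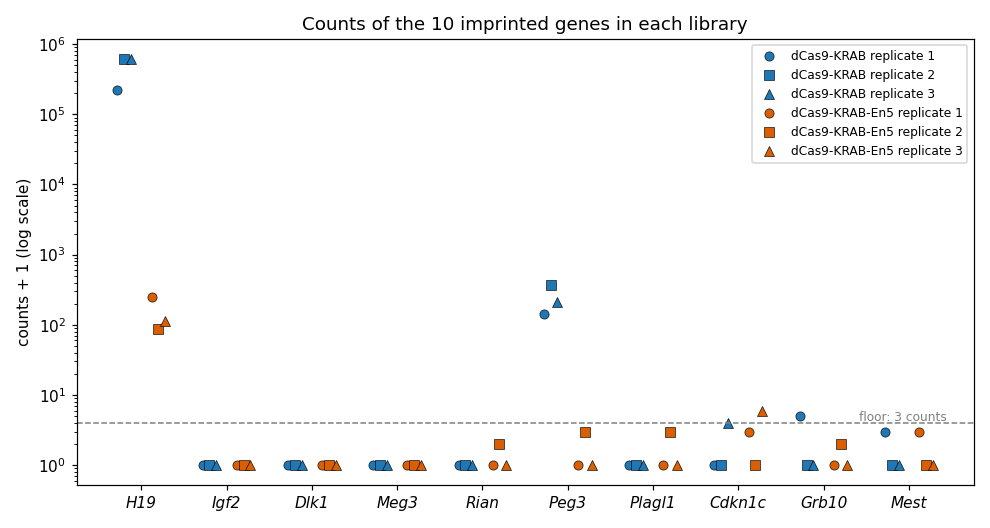
Counts plus 1 (log axis) of the 10 imprinted genes in each of the 6 libraries, with dCas9-KRAB in blue, dCas9-KRAB-En5 in orange, a symbol for each replicate, and a dashed line at the floor of 3 counts. *H19* lies between 223231 and 610657 counts in dCas9-KRAB and between 85 and 247 in dCas9-KRAB-En5, *Peg3* between 140 and 363 and between 0 and 2, and the other 8 genes lie at 5 counts or fewer throughout.

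*H19* (ENSMUSG00000000031) is a maternally expressed long noncoding RNA and the host of the microRNA gene *Mir675*. It lies on the minus strand of chromosome 7, positions 142575529 to 142578143 of GRCm38, with 2460 exon bases. Its counts were 223231, 610657 and 607066 in dCas9-KRAB libraries 1 to 3, and 247, 85 and 114 in dCas9-KRAB-En5 libraries 1 to 3. The groups were far apart and did not overlap. By TPM, the groups did not overlap for 27.5% of all genes tested (19.7% with dCas9-KRAB-En5 lower). In TPM the levels were 3344, 6632 and 5510 (mean 5162 ± 1672 SD, n = 3) against 4.74, 2.04 and 2.02 (2.93 ± 1.56 SD, n = 3). The highest library exceeded the lowest by 1.98 times within dCas9-KRAB and by 2.34 times within dCas9-KRAB-En5, against 1759 times between the means. The log2 fold change was -10.89 (SE 0.82, edgeR adjusted p = 1.82e-05), an adjusted p that *Mylpf*, *Myod1*, *Ckm*, *Tnnc1*, *Actc1* and *Cobl* also had. An exact two-sided permutation test over the 6 libraries gave p = 0.1, the smallest that 3 against 3 libraries allow.

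*H19* was among the most abundant transcripts of dCas9-KRAB cells. It took 0.550% (95% Wilson interval 0.548 to 0.553), 0.913% (0.910 to 0.915) and 0.820% (0.818 to 0.823) of all counts in these libraries. Among genes it ranked 16, 3 and 5 by counts, and 53, 16 and 24 by TPM. In dCas9-KRAB-En5 its share was 0.000612% (0.000540 to 0.000693), 0.000240% (0.000194 to 0.000297) and 0.000358% (0.000298 to 0.000430), at ranks 9038, 10491 and 8157 by counts. These intervals cover counting error only, and reads without molecular identifiers are not independent molecules. Of the 671 genes called lower, 1 had a higher mean TPM in dCas9-KRAB than *H19*. The RNA left in dCas9-KRAB-En5 was 0.0568% of the dCas9-KRAB mean, and in TPM it was still above the floor of 0.0533 to 0.0719 TPM for *H19* in those libraries.

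The fall of *H19* lay within the range of the 10 muscle markers, of which 0.0111% to 0.893% was left. The percentage of mean TPM left in dCas9-KRAB-En5 was 0.0339 for *Mylpf*, a fast muscle myosin light chain, 0.0482 for *Myod1*, the myogenic determination factor, and 0.0867 for *Acta1*, skeletal actin. *Des*, which encodes the intermediate filament desmin, kept more, at 0.893%. All 10 muscle markers were called lower, and they were chosen as markers of the lineage with their fall in these libraries known. Among the 7547 genes averaging 10 CPM or more, the pattern closest to that of *H19* over the 6 libraries was that of *Mylpf*, at a Euclidean distance of 1.196 between centred log2(CPM + 1) values, followed by *Myl4*, the embryonic and atrial myosin light chain, at 1.21, against a median of 13.14 over the genes compared. The ratio of *H19* to *Mylpf* TPM was 0.335, 0.863 and 0.723 in dCas9-KRAB against 1.20, 0.834 and 0.929 in dCas9-KRAB-En5. These ratios overlapped between the groups, although the levels of each gene alone did not. *Mylpf* had the nearest pattern in these same libraries, so a stable ratio to it follows from that choice. The ratio to *Des* did not overlap, at 8.73, 4.21 and 5.15 against 0.602, 0.384 and 0.146, and was lower in each dCas9-KRAB-En5 library than in any dCas9-KRAB library. That to *Myh3*, a myosin heavy chain gene, was also lower, at 243, 177 and 334 against 35.8, 10.5 and 28.1. That to *Mymk*, a myoblast fusion gene, was higher, at 8.14, 6.34 and 8.12 against 12.6 and 52.2 in dCas9-KRAB-En5 libraries 1 and 2. Library 3 had no *Mymk* counts.

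**Figure D2:**
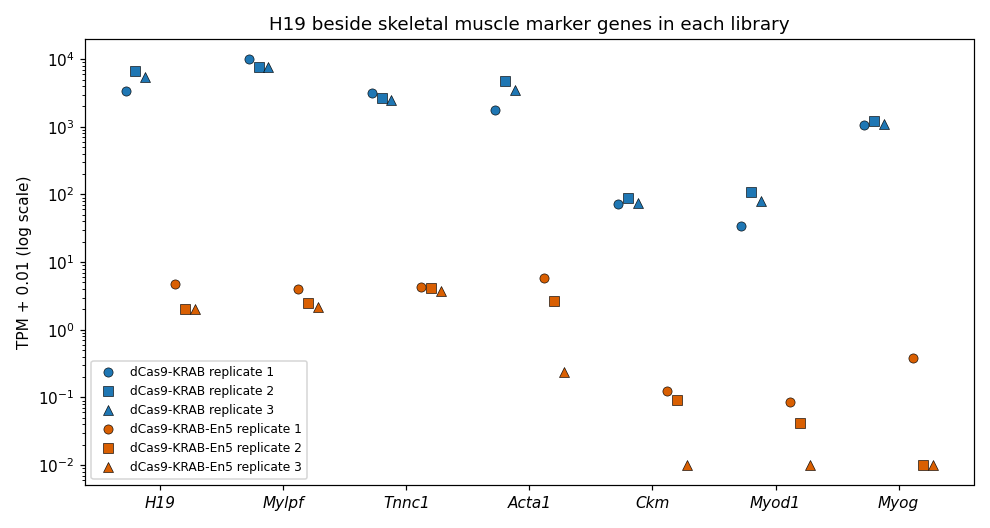
TPM plus 0.01 (log axis) of *H19* and 6 skeletal muscle markers in each library, with dCas9-KRAB in blue and dCas9-KRAB-En5 in orange. In *H19* and in all 6 markers the lowest dCas9-KRAB library lies above the highest dCas9-KRAB-En5 library. That order held for 19.7% of all genes tested. The ratio of *H19* to *Mylpf*, the gene with the nearest pattern in these same libraries, lies between 0.335 and 1.20 throughout.

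*Igf2*, which encodes the fetal growth factor IGF2, was listed in no library, although its start lies 88.7 kb upstream of that of *H19*, on the same strand of chromosome 7 (142650766 to 142666816). A count of 0 allows up to 0.0117 to 0.0309 TPM of *Igf2*. Relative to *H19* per length, the limit was 0.000578%, 0.000211% and 0.000212% in dCas9-KRAB, and 0.522%, 1.52% and 1.13% in dCas9-KRAB-En5. The reach of this limit depends on how reads were assigned, since 64.5% of the 5723 exon bases of *Igf2* are shared with other genes, 62.8% with *Gm49394* on the same strand, which was not listed either. How the authors treated reads that fall on overlapping genes is not given in the sources used here. On the 2029 bases that *Igf2* shares with no gene, a count of 0 allows up to 0.0330 to 0.0872 TPM. The percentages relative to *H19* used all 5723 bases and would be higher on these 2029. *Igf2os*, the antisense transcript, had 0, 6 and 14 counts in dCas9-KRAB and 0 in every dCas9-KRAB-En5 library.

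Around *H19*, *Nctc1*, *Tnnt3*, *Tnni2* and *Ins2* fell, and *Mrpl23*, *Lsp1* and *Syt8* were not called. The list held 10 genes, of which 7 were tested, 4 were called lower and 0 higher. Over all genes tested, 4.67% were called lower and 1.52% higher. The median log2 fold change was -3.48 (the value of *Tnni2*), against 0.08 over all genes tested. *Nctc1*, *Tnnt3* and *Ins2* passed the filter only through dCas9-KRAB, so the count of 4 carries no weight of its own. No gene of the list was higher at an unadjusted p under 0.05, and DESeq2 and limma called none higher. *Nctc1*, a noncoding RNA whose gene spans a muscle enhancer, starts 19.5 kb downstream of the *H19* start and had 47, 83 and 80 dCas9-KRAB counts and none in the dCas9-KRAB-En5 libraries. That is at least 12.8-fold lower (floor of 3 counts in each library, edgeR adjusted p = 0.0051). The *Nctc1* call was kept in 8 of 14 alternatives, with adjusted p up to 0.0405. It was lost without any single dCas9-KRAB library, without dCas9-KRAB-En5 library 1 or 2, and with limma on log2(TPM + 1). *Tnnt3*, fast skeletal troponin T, fell from 450 ± 112 to 0.539 ± 0.499 TPM (SD, n = 3 each, log2 fold change -10.11, SE 1.04, edgeR adjusted p = 0.000103).

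*Tnni2*, fast skeletal troponin I, stayed far more abundant than *Tnnt3*, at 89.5, 64.0 and 171 TPM in dCas9-KRAB-En5 against 1428, 1461 and 1354 TPM in dCas9-KRAB. Its log2 fold change was -3.48 (SE 0.73, edgeR adjusted p = 0.00839), and the call was kept in 7 of 14 alternatives, with adjusted p up to 0.0568 and losses on leaving out any 1 library other than dCas9-KRAB-En5 library 3. *Ins2*, an insulin gene with paternal expression in the yolk sac, had 749, 1262 and 1356 counts in dCas9-KRAB against 0 in dCas9-KRAB-En5, at least 204-fold lower (edgeR adjusted p = 4.59e-05). Its annotated model reaches from 142678656 to 142743381 on chromosome 7, and gene counts do not tell which of its exons gave the reads. Between and beyond these genes, *Mrpl23*, a mitochondrial ribosomal protein gene, had a log2 fold change of -0.29 (edgeR adjusted p = 0.754), *Lsp1*, a leukocyte actin-binding protein gene, of -0.77 (0.243), and *Syt8* of -0.26 (0.773).

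**Figure D3:**
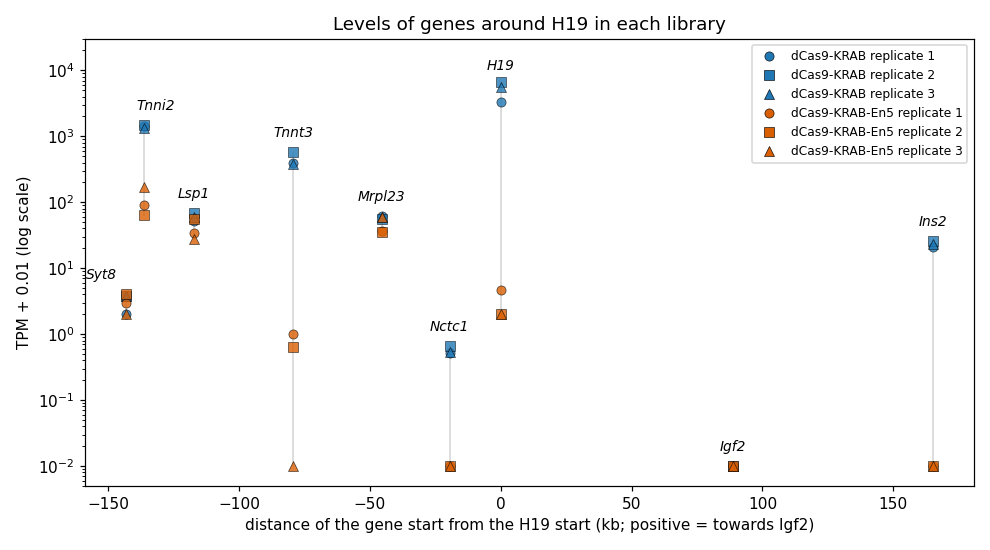
TPM plus 0.01 (log axis) in each library for *H19*, *Igf2* and 7 neighbouring genes, placed by the distance of their start from the *H19* start in kb, with positive distances towards *Igf2*, dCas9-KRAB in blue and dCas9-KRAB-En5 in orange. *Nctc1*, *Tnnt3*, *Tnni2* and *Ins2* separate with *H19*, *Mrpl23*, *Lsp1* and *Syt8* lie close together in both groups, and *Igf2* is at 0 in every library.

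The upstream bases of *Nctc1* are shown because it is the nearest listed neighbour of *H19*, and they are from RefSeq (GRCm38.p6), chr7:142558599-142558848, minus strand. Capitals mark CANNTG, the E-box letters that MYOD and MYOG can bind.
Nctc1: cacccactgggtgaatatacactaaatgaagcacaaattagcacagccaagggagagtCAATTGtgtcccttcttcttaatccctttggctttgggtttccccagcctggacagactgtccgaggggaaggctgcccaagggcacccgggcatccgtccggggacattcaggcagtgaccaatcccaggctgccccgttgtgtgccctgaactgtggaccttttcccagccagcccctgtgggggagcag
These 250 bases held 1 match, 192 bases before the start, and none to CAGCTG or CAGGTG (either strand). CANNTG, a palindrome in its fixed letters, was present in 66.2% of 32851 upstream windows of 250 bases, CAGCTG in 4271 of them and CAGGTG in 17.2%, and both of these are among the CANNTG matches.

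*Peg3* (ENSMUSG00000002265), a paternally expressed zinc finger gene active in embryonic and adult progenitor cells, was the only other of the 10 genes with more than 5 counts in a library. It lies on the minus strand of chromosome 7, positions 6703892 to 6730431, far from *H19*, with 13324 exon bases shared with no other gene. Its counts were 140, 363 and 210 in dCas9-KRAB against 0, 2 and 0 in dCas9-KRAB-En5, so the groups did not overlap, as was the case by TPM for 27.5% of all genes tested (19.7% with dCas9-KRAB-En5 lower). The level was low even in dCas9-KRAB, at 0.379, 0.712 and 0.344 TPM (mean 0.479 ± 0.203 SD, n = 3), far under that of *H19* per length. The pooled counts of 713 and 2, scaled by library size, gave a ratio of 225.8 (95% counting interval 62.3 to 1868) of dCas9-KRAB over dCas9-KRAB-En5, with an edgeR adjusted p of 0.000871. The call was kept in 12 of 14 alternatives, and lost without dCas9-KRAB library 1 (adjusted p = 0.0119) and with limma on log2(TPM + 1) (adjusted p = 0.0316), a scale that compresses a gene under 1 TPM. The exact two-sided permutation test gave p = 0.1, again the smallest possible.

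The patterns closest to that of *Peg3* among 7548 genes were those of *Cttn*, which encodes the actin-binding protein cortactin, at a distance of 0.374 (log2 fold change -2.68, edgeR adjusted p = 0.00236), and *Mmp14*, a membrane-bound matrix metalloproteinase, at 0.611 (-2.42, 0.00821), against a median of 3.15. On log2(CPM + 1) the change of a gene as low as *Peg3* is understated, so both have smaller fold changes than *Peg3*. In the same imprinted domain, *Zim1*, a zinc finger gene, had 34, 39 and 18 counts in dCas9-KRAB against 0 in dCas9-KRAB-En5, and *Usp29*, a deubiquitinase-like gene that starts on the opposite strand next to *Peg3*, had 8, 7 and 1 against 0. Both were under the filter, and *Peg3os* and *Zfp264* were not listed. Without the filter *Zim1* was at least 6.0-fold lower (edgeR adjusted p = 0.00539, DESeq2 adjusted p = 0.000854).
The bases between the annotated starts of *Peg3* and *Usp29*, which the pair share, are from RefSeq (GRCm38.p6), chr7:6730432-6730577, written on the minus strand in the direction of *Peg3*.
Peg3: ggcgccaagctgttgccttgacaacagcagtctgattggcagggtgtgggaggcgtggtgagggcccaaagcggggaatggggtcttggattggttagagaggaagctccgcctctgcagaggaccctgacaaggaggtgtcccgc
These 146 bases held 0 matches to CANNTG, which says only that these letters are not in this window.

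*Dlk1*, *Meg3* and *Rian*, which share a domain of chromosome 12, were at or near 0 in both groups. *Dlk1* (109452823 to 109463336), which encodes a transmembrane protein related to NOTCH ligands and known from regenerating muscle, was listed in no library, which allows up to 0.0118 to 0.0313 TPM. *Meg3* (109541001 to 109571726), a maternally expressed long noncoding RNA, was listed in no library either, which allows up to 0.00370 to 0.00978 TPM. *Rian* (109603940 to 109661716), the host of many small nucleolar RNAs, had 1 count in dCas9-KRAB-En5 library 2 and 0 elsewhere. Ratios between these genes therefore could not be formed. Of 8 further genes of the domain, 5 were not listed, and the 3 tested were *Wdr25*, *Wars* and *Ppp2r5c*, which are not known to be imprinted. edgeR called 0 of the 3, with 2 lower and 0 higher at an unadjusted p under 0.05, DESeq2 called 1 lower, and limma called 0. Over all genes, DESeq2 called 2390 and edgeR 890. None of 11 microRNA genes from the imprinted domains, *Mir675* of *H19* among them, was listed in any library, although gene counts from long polyA RNA libraries do not measure mature microRNAs. All exon bases of *Mir675*, *Mir127*, *Mir136*, *Mir431*, *Mir433*, *Mir434* and *Mir770* are shared with other genes. For these, a count of 0 can follow from how shared reads were assigned.

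The remaining members stood at or near the floor in every library. *Plagl1* (chromosome 10, 13060504 to 13131694) had 2 counts in dCas9-KRAB-En5 library 2 and 0 elsewhere. *Cdkn1c* (chromosome 7, 143458339 to 143461050), which encodes the cyclin-dependent kinase inhibitor p57 and is known for cell cycle exit in muscle, had 0, 0 and 3 counts in dCas9-KRAB against 2, 0 and 5 in dCas9-KRAB-En5, so the groups overlapped. The highest of these values was 0.107 TPM. *Grb10* (chromosome 11, 11930508 to 12038683), an adaptor that restrains insulin and IGF1 receptor signalling, had 4, 0 and 0 against 0, 1 and 0 counts. *Mest* (chromosome 6, 30723547 to 30748465), a paternally expressed gene for a hydrolase-like protein, had 2, 0 and 0 in either group. Differences in these genes were not detectable at this depth, at which a count of 0 allows up to 0.0868 TPM for *Cdkn1c*, 0.0449 for *Mest*, 0.0226 for *Plagl1*, 0.0195 for *Grb10* and 0.00970 for *Rian*. Without the filter, edgeR gave adjusted p = 0.506 for *Rian*, 0.412 for *Plagl1*, 0.522 for *Cdkn1c*, 0.686 for *Grb10* and 0.985 for *Mest*. Exon bases shared with a gene on the opposite strand made up 30.7% of *Cdkn1c* and 23.1% of *Mest*, and the library kit does not mark strand.

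Some neighbours of these genes were expressed and fell. Beside *Grb10*, 4 of 5 listed genes were tested, and 2 were called lower and 0 higher. The shares over all genes tested were 4.67% lower and 1.52% higher. *Cobl* and *Ddc*, the 2 called, passed the filter only through dCas9-KRAB counts, so the count of 2 carries no weight of its own. The 2 not called, *Fignl1* and *Ikzf1*, had positive log2 fold changes (0.632, edgeR adjusted p = 0.573, and 1.498, 0.0727). Without dCas9-KRAB-En5 library 3, edgeR called 2 genes of this list lower and 1 higher. Over all genes, that fit called 3921, against 890 in the main fit. *Cobl*, which encodes an actin nucleator, had 1578, 3962 and 3036 counts against 1, 3 and 0, and fell from 9.49 ± 3.10 to 0.00918 ± 0.0113 TPM (SD, n = 3 each, log2 fold change -10.30, SE 0.77, edgeR adjusted p = 1.82e-05), with a call kept in 14 of 14 alternatives. *Ddc*, aromatic L-amino acid decarboxylase, had 26, 65 and 41 counts against 0 in each dCas9-KRAB-En5 library, at least 8.03-fold lower (edgeR adjusted p = 0.00965). The *Ddc* call was kept in only 4 of 14 alternatives, with adjusted p from 0.000113 to 0.0844 and 0.0159 with the replicate block, and leaving out any 1 library other than dCas9-KRAB-En5 library 3 ended it. Beside *Cdkn1c*, 5 of 7 genes were tested, 1 was called lower and 1 higher. *Osbpl5*, a lipid transfer protein gene, fell from 6.24, 24.0 and 15.2 TPM to 0.605, 0.816 and 0.925 TPM (log2 fold change -4.19, SE 0.66, edgeR adjusted p = 0.00192), a call lost without dCas9-KRAB library 1 (0.0112) or 2 (0.0107) and with limma on log2(TPM + 1) (0.0117).

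*Kcnq1ot1*, the long noncoding RNA that silences the *Cdkn1c* domain on the paternal chromosome, had 0, 0 and 0 counts in dCas9-KRAB against 71, 42 and 9 in dCas9-KRAB-En5. It was at least 24.1-fold higher (edgeR adjusted p = 0.00644), at no more than 0.0360 TPM over an annotated length of 93092 bases. The call was kept in 6 of 14 alternatives (adjusted p from 5.09e-06 to 0.827), and ended on leaving out any 1 library other than dCas9-KRAB-En5 library 3. It lies within the span of *Kcnq1* on the other strand, the kit does not mark strand, and 0.13% of its exon bases are shared with *Kcnq1* exons. *Kcnq1* was listed in no library. Beside *Plagl1* and beside *Mest*, 2 genes each were tested and edgeR called 0, with 0 at an unadjusted p under 0.05 and 0 by DESeq2 and by limma.

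Over a wider list of 49 other imprinted genes, 35 were listed and 22 were tested, of which 5 were called lower, 1 higher and 16 neither, with a median log2 fold change of -0.55, where 4.67% of all genes tested were called lower and 1.52% higher at a median of 0.08. *Ins2*, *Cobl*, *Ddc* and *Snrpn* passed the filter only through their dCas9-KRAB counts and *Kcnq1ot1* only through dCas9-KRAB-En5, so the counts of calls carry no weight of their own. The genes called lower were *Ins2*, *Cobl*, *Ddc*, *Osbpl5* and *Snrpn*, a gene for a splicing protein of neurons, heart and other tissues. *Snrpn* had 100, 89 and 135 counts in dCas9-KRAB against 1, 0 and 0 in dCas9-KRAB-En5, a ratio of 205.2 (95% counting interval 36.57 to 8130, edgeR adjusted p = 0.00213), and the call was lost without dCas9-KRAB library 1 (0.0213). It shares 27.3% of its exon bases with *Gm38393* on the same strand, so the split of its reads is uncertain. Most imprinted genes at measurable levels were not called, among them *H13*, *Gnas*, *Gatm*, *Copg2* and *Dcn*, with log2 fold changes of -0.72, -0.47, -0.27, -0.01 and -1.34.

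**Figure D4:**
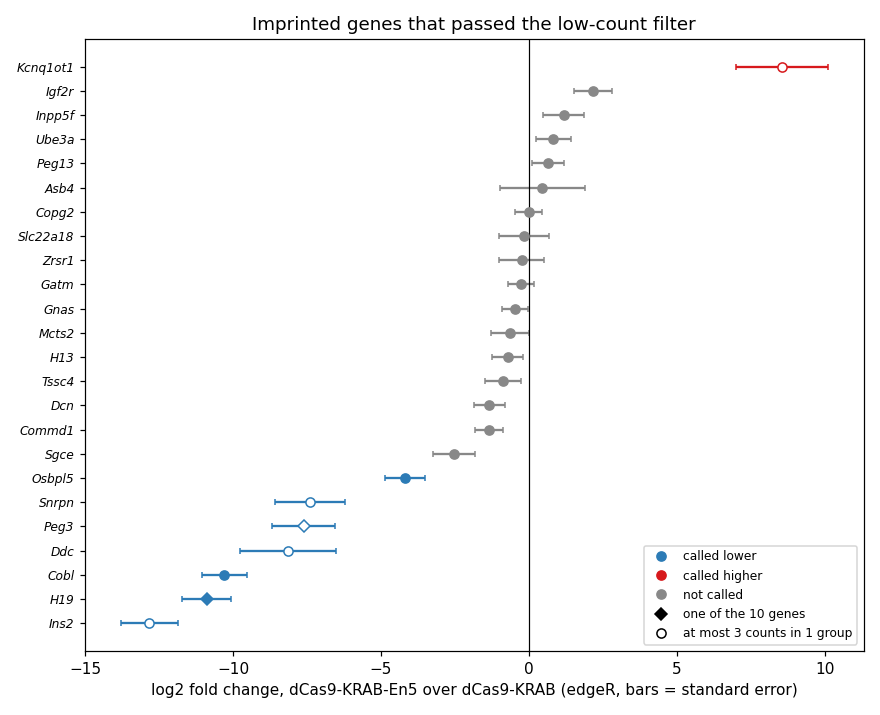
edgeR log2 fold changes of dCas9-KRAB-En5 over dCas9-KRAB, with standard errors as bars, for *H19*, *Peg3* and 22 other imprinted genes that passed the filter, coloured by call, with open symbols for at most 3 counts in all in 1 group, whose fitted values depend on the prior count. 7 genes lie to the left as called lower, *Kcnq1ot1* alone is called higher, and 16 genes are not called.

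The known partners of these genes were all listed, and none was called in the main edgeR fit. Of 19 receptors, adaptors and cell cycle targets through which they act, 19 were listed and 17 were tested. edgeR called 0, with 3 lower and 6 higher at an unadjusted p under 0.05. Over all genes, the main edgeR fit called 890 (6.19%), the replicate block 1543 and DESeq2 2390. Without dCas9-KRAB-En5 library 3, edgeR called 3921 of all genes. Counts of partners called therefore carry no weight of their own. In the fit without that library, 2 partners were called lower and 5 higher. Among the partners, DESeq2 called 2 lower and 2 higher, limma called 0, and the replicate block gave 1 lower and 1 higher. Those called with the block were *Nedd4*, a ubiquitin ligase known to bind GRB10 (log2 fold change -2.10, adjusted p = 0.00493), and *Notch1*, a receptor on which DLK1 is thought to act (2.91, adjusted p = 0.00389). *Igf2r*, the imprinted receptor that clears IGF2, was at 1.08, 3.07 and 1.25 TPM in dCas9-KRAB and at 11.1, 20.5 and 1.33 TPM in dCas9-KRAB-En5, with library 3 of the latter inside the range of the dCas9-KRAB libraries (log2 fold change 2.17, edgeR adjusted p = 0.0385). DESeq2 called *Igf2r* higher (adjusted p = 0.00868), and 11 of 14 alternatives did not call it. *Cdk4*, a cyclin D-dependent kinase of the cell cycle, stood at 280 ± 25.1 and 119 ± 30.5 TPM (SD, n = 3 each, edgeR adjusted p = 0.0865). *Cdkn1a*, the p21 inhibitor of the same family as p57, was at 371 ± 139 and 324 ± 91.4 TPM (edgeR adjusted p = 0.665), where *Cdkn1c* was at the floor.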

How the data were processed

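RNA-Seq of 6 C2C12 libraries was used, 3 per group, grouped and numbered by the sample labels. The authors sequenced polyA RNA, aligned the reads with HISAT2 2.2.1 to GRCm38 and deposited raw gene counts from featureCounts. The TPM that the authors deposited beside them sum to 1000000 in each library. The annotation release, the strand setting and the treatment of overlapping genes are not given in the sources used here. Genes absent from a file were taken as 0. Identifiers were matched to GENCODE for 23155 of 23231 genes.

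Counts were tested with edgeR 4.0.16 in R 4.3.3 (TMM, filterByExpr with minimum count 10 and minimum total count 15, quasi-likelihood test, Benjamini-Hochberg over all genes tested), with condition alone in the model. Calls needed an adjusted p no greater than 0.01 and a log2 fold change of 1 or more in size. The alternatives were other scalings, DESeq2 1.42.0, limma 3.58.1 (on TPM plus 1 or plus 0.1, as log2), no filter, a replicate block and leaving out each library. The script was tested on simulated data. Folds against groups at 0 used a floor of 3 counts per library. Exact permutation tests used log2(TPM + 0.1).

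The members and lists were chosen with earlier results of these data known. Named genes were the members, *Myog*, up to 6 called genes of each list with the smallest adjusted p, and for each tested member the 2 genes with the nearest pattern. Uncalled genes named from the lists, *Zim1*, *Usp29* and *Igf2os* among them, were chosen after their values were seen. Deviations of same-numbered libraries from their group means correlated at 0.262, 0.214 and 0.29, and those of other pairs at -0.34 to -0.0508, so the blocked fit is given beside the unblocked one where it changes a call or a count, although the labels state no shared handling. Planned tests of *Igf2* over *H19*, *Dlk1* over *Meg3* and *Rian* over *Meg3* were not made, since *Igf2*, *Dlk1* and *Meg3* were listed in no library.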

Additional observations from a re-analysis of the deposited data

How the results depend on the processing

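The *H19* call was kept in 14 of 14 alternatives, with log2 fold changes from -11.15 to -10.37 and adjusted p from 2.95e-87 to 0.00155. Over all genes, 890 were called, against 2390 with DESeq2, 2198 with no filter, 586 with scaling by total counts, 514 with limma on log2(TPM + 1), and 222 to 3921 on leaving out 1 library, the lowest without dCas9-KRAB library 1 and the highest without dCas9-KRAB-En5 library 3. The replicate block gave 1543, of which 976 were lower and 567 higher, against 671 and 219 without it. It left *H19* (-10.97, adjusted p = 2.85e-07) and *Peg3* (-7.86, adjusted p = 0.000158) called and ended the call of *Ddc*. Of the 10 genes, 2 were called lower, against 1 with limma on log2(TPM + 1), where *Peg3* was at -0.55, and 1 to 2 on leaving out 1 library. *Peg3* ran from -10.60 to -6.98 in those fits and was not called at -7.79, without dCas9-KRAB library 1. Of the other imprinted genes, the 5 called lower became 3 with limma on log2(TPM + 1) and 2 to 9 on leaving out 1 library. The 1 called higher became 2 with DESeq2, 3 with no filter, 0 with total counts, 0 with either limma fit, and 0 to 3 on leaving out 1 library. The causes were not tested. Depth limits what can be said of the 8 genes at 5 counts or fewer. The tests of *Igf2* over *H19*, *Dlk1* over *Meg3* and *Rian* over *Meg3* and their alternatives were not run.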

Other observations

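Genes that set, keep or erase imprints were not called in either direction. Of 21 such genes, 17 were tested, 15 had positive and 2 negative log2 fold changes, and the median was 1.36. The median over all genes tested was 0.08. With a call count of 0 by edgeR, 1 was lower and 7 were higher at an unadjusted p under 0.05. DESeq2 called 3 higher, limma 0, and the replicate block 1 higher. Over all genes tested, 1.52% were called higher in the main fit and 3.94% with the block. DESeq2 called 2390 genes in either direction. The gene called with the block was *Zfp445*, a zinc finger gene that protects imprints, at 0.582, 0.389 and 0.277 TPM in dCas9-KRAB and 5.27, 3.44 and 0.472 TPM in dCas9-KRAB-En5, where library 3 lay within the dCas9-KRAB range. Without that library, 6 of the genes were called higher. Over all genes, that fit called 3921, against 890 in the main fit, so the count of 6 carries no weight of its own. *Dnmt1*, the maintenance DNA methyltransferase, stood at 14.3 ± 11.6 and 41.2 ± 36.0 TPM (SD, n = 3 each, edgeR adjusted p = 0.25).

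*Nnat*, a paternally expressed proteolipid gene named here after its values were seen, had 0 counts in all dCas9-KRAB libraries and 100, 83 and 0 in dCas9-KRAB-En5. It was under the filter, and the adjusted p was 5.2e-06 with edgeR and no filter and 0.0914 with DESeq2.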
